A study of Mus musculus with 5 samples.

Results

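The AP-1 and EGR immediate early factors were followed here as 10 genes, namely Fos, Fosb, Fosl1, Fosl2, Jun, Junb, Egr1, Egr2, Egr3 and Atf3. They were taken as all probe sets that the platform annotation assigns to 1 of these symbols alone, which gave 15 probe sets for 10 of the 18193 named genes, 2 probe sets for each of 5 genes and 1 for each of the other 5. The series profiled mouse ovarian granulosa cells on Affymetrix 3′ arrays, 5 arrays in 5 groups with 1 array each. All mice were primed for 48 h with equine chorionic gonadotropin (eCG), which makes follicles grow, before the injection of human chorionic gonadotropin (hCG), a ligand of the luteinizing hormone receptor that triggers ovulation. Wild-type cells were taken 8 h (mice aged 23 days) and 24 h (24 days) after hCG. Knockout cells were taken at 4 h and 8 h (23 days) and at 24 h (24 days), from mice labelled as CEBPα/β fl/fl fl/fl and carrying Cyp19-cre. In these, Cebpa and Cebpb, which encode leucine zipper transcription factors, are floxed, and the recombinase is driven by the promoter of the aromatase gene, which is active in granulosa cells. The sources used here do not give how many animals lie behind each array, or whether the wild-type mice carry floxed alleles.

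AP-1 is a dimer of a JUN protein with a FOS, JUN or ATF protein, joined through leucine zippers and bound to a short palindromic DNA element. The EGR proteins are zinc finger factors that bind a GC-rich element. Many of these genes are transcribed within minutes of a hormone or growth factor signal, without new protein synthesis, through serum response factor at CArG boxes and CREB at cAMP response elements. In granulosa cells the luteinizing hormone receptor raises cAMP and, through EGF-like factors, ERK signalling, and several of the genes are known as early responders to the ovulatory surge.

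The promoter sequences were read for elements of this kind. Windows of 300 bases, from 250 before to 50 after the annotated start, were read from the RefSeq table of GRCm38.p6 for 7 of the 10 genes. No window of Egr1, Egr3 or Fosl1 was read, so nothing is said of their elements. They were searched on both strands for the cAMP response element core TGACGT, the AP-1 site TGANTCA, the EGR site GCGNGGGCG, the C/EBP site TTGCNNAA and the CArG box. The core TGACGT was found in the windows of Fos, Egr2 and Atf3, and in 7.51% of all 32851 windows of the table. Among these 7 genes a CArG box was found in windows of Egr2 only, and in 1.63% of all windows. Below, a window of each of the 3 genes with the core is shown, chosen for that match. Matches are in capitals: the core (as ACGTCA where it lies on the other strand) and, upstream of it in Egr2, the CArG box.

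Fos, chr12:85473640-85473939, plus strand: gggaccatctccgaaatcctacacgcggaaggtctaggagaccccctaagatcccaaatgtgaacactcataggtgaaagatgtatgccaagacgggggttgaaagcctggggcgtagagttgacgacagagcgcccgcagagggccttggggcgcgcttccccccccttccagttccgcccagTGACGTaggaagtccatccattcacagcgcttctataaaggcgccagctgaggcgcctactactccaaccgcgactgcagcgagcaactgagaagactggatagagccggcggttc
Egr2, chr10:67537619-67537918, plus strand: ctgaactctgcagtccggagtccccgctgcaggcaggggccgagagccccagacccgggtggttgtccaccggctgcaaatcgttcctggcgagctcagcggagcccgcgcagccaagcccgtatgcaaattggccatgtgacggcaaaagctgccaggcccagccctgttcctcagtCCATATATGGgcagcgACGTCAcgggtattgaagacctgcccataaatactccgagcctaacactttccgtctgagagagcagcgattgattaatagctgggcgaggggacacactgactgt
Atf3, chr1:191183284-191183583, minus strand: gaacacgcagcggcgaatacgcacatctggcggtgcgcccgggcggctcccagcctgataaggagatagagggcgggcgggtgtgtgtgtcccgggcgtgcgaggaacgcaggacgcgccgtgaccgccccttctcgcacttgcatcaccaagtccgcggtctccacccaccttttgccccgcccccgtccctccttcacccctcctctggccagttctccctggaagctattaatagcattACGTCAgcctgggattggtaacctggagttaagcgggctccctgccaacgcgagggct

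In Fos the core began 66 bases before the start, in this window of Egr2 56 bases and in Atf3 8 bases before it. Egr2 has 5 annotated windows, of which 3 overlap and share the same CArG box and core and 1 other holds a different CArG box. The EGR site GCGNGGGCG matched in Fosb and Fosl2 and in 5.55% of all windows. TTGCNNAA and TGANTCA matched in none of the 7 genes, and in 10.8% and 7.81% of all windows. A match is a string of letters and no measure of binding, and the absence of one says only that it is not in this window.

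The deposited values are linear intensities in whole numbers, and the text below takes log2 of them. On the 4 arrays at 8 h and 24 h the median intensity was 31 or 32. The knockout array at 4 h had a median of 54 and stood on another scale, and the sources used here do not say whether it was normalized with the others, so its levels are given separately and compared only after quantile normalization of the 5 arrays. A floor was set at the 40th percentile of the 4 arrays, an intensity of 19. With 1 array a group there was no replicate and no test of a single comparison. A difference was counted where the ratio was at least 2-fold (1 on the log2 scale) and at least 1 of its values reached the floor. Where the lower value was under the floor, the fold is against the floor and given as "at least". The spread between different probe sets of 1 gene, a technical error only, had an SD of 0.29 on the log2 scale for the genotype difference at 8 h, 0.40 at 24 h, 0.35 for the change from 8 h to 24 h in wild type and 0.39 in the knockout.

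The targeted genes were lower in the knockout. At 8 h Cebpa (1418982_at) read 685 for wild type and 19 for the knockout, and at 24 h 352 and 38. Cebpb (1418901_at) read 7436 and 1127 at 8 h and 3976 and 85 at 24 h. The knockout array at 4 h, on its own scale, read 40 for Cebpa and 42 for Cebpb. After quantile normalization of the 5 arrays, Cebpb was 47.0-fold higher at 8 h than at 4 h in the knockout. From 8 h to 24 h in the knockout it fell 13.3-fold (-3.73). Its second probe set (1427844_a_at) read 25, 275 and 23 in the knockout at 4 h, 8 h and 24 h. The knockout arrays thus differed in Cebpb, and its part in their time changes was not tested. Of the granulosa markers listed, 9 were named on the array and all 9 reached the floor. The inhibin subunit gene Inha lay between 15340 and 20053 on the 4 arrays and the receptor gene Fshr between 264 and 441. None of the 9 passed the rule for genotype at 8 h or 24 h. Of all genes, 1.55% were higher and 3.96% lower at 8 h, and 3.03% and 3.82% at 24 h. At such shares, none of 9 says little about these markers. From 8 h to 24 h, 4 of 9 rose by the rule in wild type (Inhbb, Foxl2, Amh and Nr5a2, list median 0.95). In the knockout 5 of 9 rose (list median 1.13). The shares of all genes that rose were 5.41% in wild type and 6.60% in the knockout. In these bulk preparations, fewer cells of a type and less RNA per cell cannot be told apart.

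Of the FOS proteins, which cannot form dimers with one another and need a JUN partner, Fos itself was measured at 1011 (wild type) and 1060 (knockout) at 8 h, and at 287 and 569 at 24 h (1423100_at). It stood at nearly the same level in both genotypes at 8 h and was lower in wild type than in the knockout at 24 h. Fosb (1422134_at) was under the floor on all 4 arrays, between 9 and 11, and no difference is read from it.

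Fosl1 encodes FRA-1, a FOS protein without the C-terminal activation domain of Fos. Its probe set of highest mean (1417487_at) read 143 (wild type) and 207 (knockout) at 8 h, then 43 and 14 at 24 h. The second (1417488_at) read 48 and 64 at 8 h, then 19 and 9. On both, the knockout was the higher array at 8 h and the lower at 24 h, where its values were under the floor.

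Fosl2 encodes FRA-2, the other FOS protein of this kind. It read 1842 (wild type) and 1054 (knockout) at 8 h and 2905 and 2461 at 24 h (1437247_at). It was the only member whose probe set of highest mean was higher at 24 h than at 8 h in both genotypes. Its second probe set (1422931_at) read 84 and 57 at 8 h and 60 and 70 at 24 h, and did not follow that course in wild type.

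Jun, the partner with the strongest activation domain of its family, read 447 in wild type at 8 h, 890 in the knockout at 8 h, and 358 and 364 at 24 h (1417409_at). The second probe set (1448694_at) gave 184, 432, 188 and 212 in the same order. The knockout at 8 h was thus the high array on both, and the other 3 lay within a narrow range. Junb, a weaker activator that can hold Jun in check, read 256 and 259 at 8 h and 150 and 112 at 24 h (1415899_at), level between genotypes at 8 h and lower on both arrays at 24 h.

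Egr1 (1417065_at) read 2360 (wild type) and 3109 (knockout) at 8 h, then 1100 and 2369 at 24 h. The knockout at 24 h stood where wild type had been at 8 h. Egr2 (1427683_at), known for its part in hindbrain patterning and in myelination, read 54 and 76 at 8 h and 20 and 46 at 24 h, and its second probe set (1427682_a_at, a less specific design) 37, 46, 20 and 29. The wild-type array at 24 h was the lowest on both, just above the floor.

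Egr3, a close relative of Egr1 with the same DNA element, had the widest course of the 10 genes. Its probe set of highest mean (1436329_at) read 399 (wild type) and 750 (knockout) at 8 h, and 19 and 60 at 24 h, with the wild-type value at the floor. Its second probe set (1421486_at) read 49, 48, 57 and 50 and showed neither the fall nor the genotype difference. The 2 probe sets thus disagree, and the values of Egr3 below are those of the first unless the second is named.

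Atf3, a stress-induced zipper protein that represses as a homodimer and can pair with JUN proteins, read 75 (wild type) and 203 (knockout) at 8 h, then 38 and 25 at 24 h (1449363_at). The knockout was the higher array at 8 h and the lower at 24 h, as for Fosl1.

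**Figure D1:**
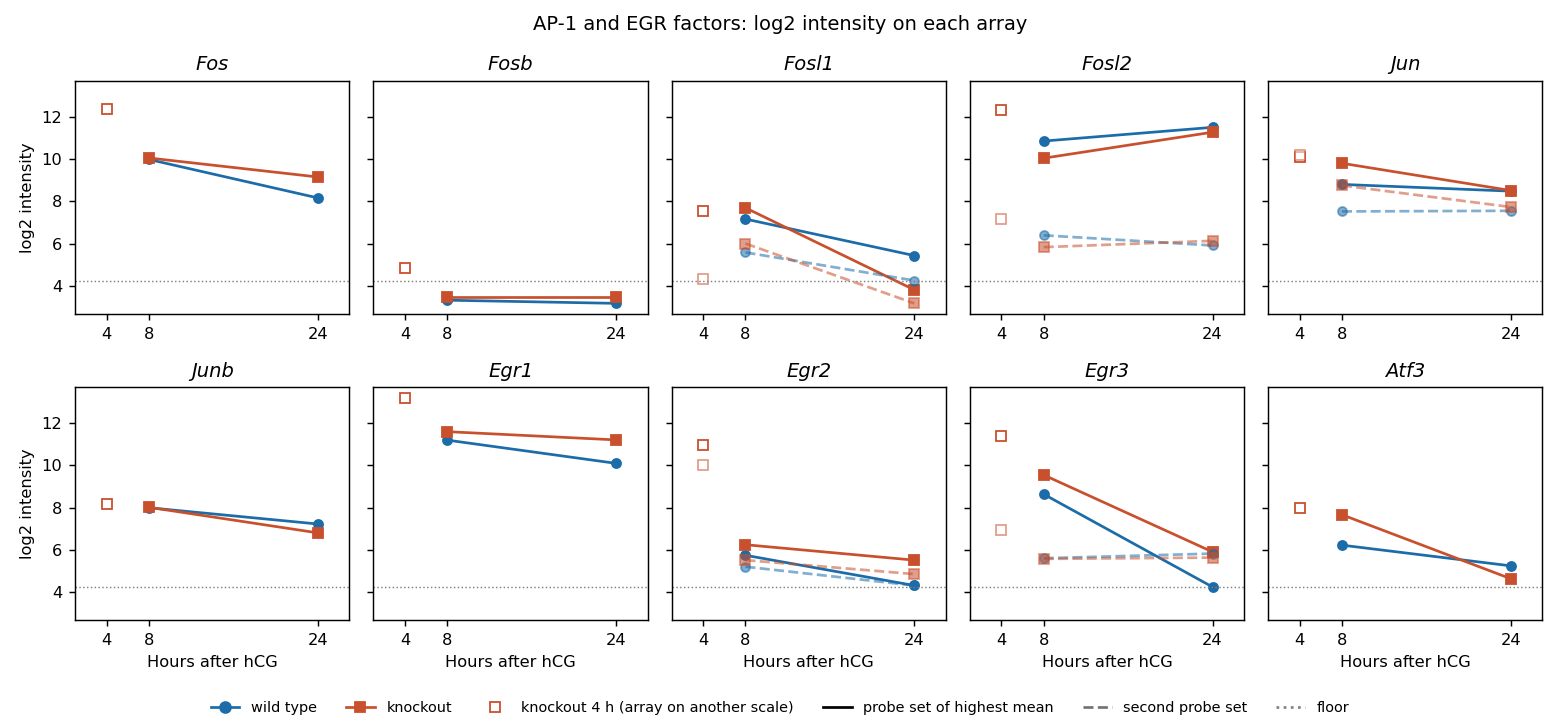
Log2 intensity of the 10 genes against hours after hCG, 1 panel a gene, with circles for wild type, squares for knockout, open squares for the knockout array at 4 h, which was on another scale, dashed lines for second probe sets and a dotted line at the floor. Each point is 1 array. Egr3 drops from 399 to 19 in wild type and from 750 to 60 in the knockout, Jun is raised in the knockout at 8 h, and Fosl2 alone climbs on its leading probe set.

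At 8 h after hCG most of the factors read higher in the knockout than in wild type, few of them by much. Of the 9 genes with a value at the floor, 8 lay above wild type and Fosl2 below it, with a median log2 difference of 0.49 against -0.01 over all 13369 genes. Atf3 alone passed the 2-fold rule, 2.71-fold higher (log2 difference 1.44), 1 of 9, where 1.55% of all genes were higher. None of the 9 was lower by the rule, where 3.96% of all genes were. Jun came next at 1.99-fold (0.99) and 2.35-fold (1.23) on its 2 probe sets. It passed the rule after quantile normalization of the 4 arrays (1.02), after median centring (1.04) and by the mean of its probe sets (1.11).

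The other differences at 8 h were smaller. Egr3 was at 0.91 on its first probe set and -0.03 on its second, Fosl1 at 0.53 and 0.42, Egr2 at 0.49 and 0.31, and Egr1 at 0.40. Fos (0.07) and Junb (0.02) differed by less than the SD between probe sets of a gene. Fosl2 was lower on both of its probe sets, at -0.81 and -0.56.

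At 24 h the EGR genes were higher in the knockout and Fosl1 lower. The rule was passed upward by 3 of 9 genes, Egr3 (3.16-fold, 1.66), Egr2 (2.30-fold, 1.20) and Egr1 (2.15-fold, 1.11), where 3.03% of all 13527 genes were higher. Fosl1 was the 1 gene lower by it, at least 2.26-fold, where 3.82% of all genes were lower. Fos missed it narrowly at 1.98-fold (0.99). The median of the 9 was 0.02 against 0.05 over all genes, with 5 genes above 0 and 4 below it, and was 0.51 with the floor at the 60th percentile.

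Apart from Egr1, these calls at 24 h rest on low values. By the mean of their probe sets, Egr2 (0.87) and Egr3 (0.73) no longer passed. With 16 added to every intensity, Egr2 (0.78) and Fosl1 (-0.98) did not, and with the floor at the 60th percentile only Egr1 and Egr3 did. The second probe set of Fosl1 was at -1.08, with both arrays at or under the floor. Atf3 at 24 h was at -0.60, Junb at -0.42, Fosl2 at -0.24 and 0.22, and Jun at 0.02 and 0.17.

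**Figure D2:**
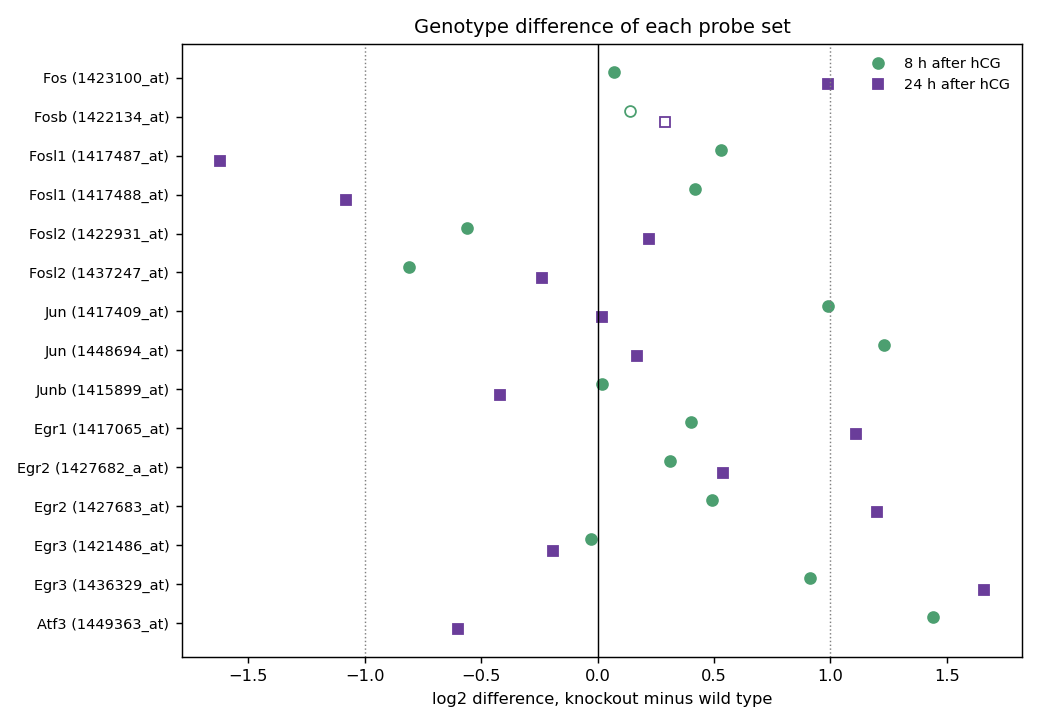
Log2 difference between the knockout and wild-type arrays for each of the 15 probe sets, at 8 h (circles) and 24 h (squares), with dotted lines at the 2-fold rule and open symbols where no value reached the floor. Each point compares 1 array with 1 array. Atf3 and both Fosl1 probe sets lie right of 0 at 8 h and left of it at 24 h, while Egr1 and both Egr2 probe sets lie farther right at 24 h.

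Markers of other cells moved with genotype on the same arrays. All 12 of 12 stroma and smooth muscle markers were lower by the rule in the knockout at 8 h, with a summed intensity of 5055 against 23703, and 3 of 11 at 24 h, with 9321 against 15045. All 10 of 10 endothelial markers were lower at 8 h (592 against 2050) and 3 of 10 at 24 h (646 against 1295). Theca and leukocyte markers had 3 of 5 and 5 of 12 lower (and 1 leukocyte marker higher) at 8 h, with sums of 1368 against 2616 and 968 against 1578, and none and 3 lower at 24 h (1609 against 1438, and 1387 against 2148). Of all genes, 3.96% were lower and 1.55% higher at 8 h, and 3.82% were lower at 24 h. None of the markers in these 4 lists that were named on the array was under the floor on all 4 arrays. The part of these cells in the differences of the AP-1 and EGR genes was not tested.

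From 8 h to 24 h, 5 of 9 factors fell by the rule in each genotype, and Fosl2 read higher on its leading probe set. In wild type, 5 of 9 genes were lower by the rule at 24 h, where 6.36% of all 13489 genes were, and none was higher, where 5.41% were. Egr3 fell 21.0-fold (-4.39), to the floor, Fos 3.52-fold (-1.82), Fosl1 3.33-fold (-1.73), Egr2 2.70-fold (-1.43) and Egr1 2.15-fold (-1.10). The median of the 9 was -1.10 against 0 over all genes. Atf3 was at -0.98, Junb at -0.77 and Jun at -0.32, and Fosl2 was at 0.66 (-0.49 on its second probe set). On the same arrays 6 of 12 stroma markers (median -0.95), 3 of 5 theca markers (-2.01) and 2 of 10 endothelial markers (-0.88) fell, 2 of 12 leukocyte markers and 4 of 9 granulosa markers rose, and the part of these in the falls of the factors was not tested.

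In the knockout the median was -1.21 against 0.07 over all genes. Fosl1 fell at least 10.9-fold (-3.45 with the lower value at the floor), Egr3 12.5-fold (-3.64), Atf3 8.12-fold (-3.02), Jun 2.45-fold (-1.29) and Junb 2.31-fold (-1.21), 5 of 9 genes, where 5.18% of all 13483 genes were lower. Fosl2 rose 2.33-fold (1.22), the 1 gene higher, where 6.60% of all genes were, though by the mean of its probe sets it was at 0.76. Fos (-0.90), Egr2 (-0.72) and Egr1 (-0.39) were not called. Egr3 and Fosl1 were the 2 genes lower by the rule in both genotypes, with Atf3 in wild type and Fos in the knockout near it. Of the markers, 4 of 11 for stroma, 3 of 12 for leukocytes and 5 of 9 for granulosa cells rose in the knockout, and 1 of 9 for endothelium and 1 of 12 for leukocytes fell. The falls in wild type of Egr2 under an offset of 16 (-0.96), and of Egr2 with the floor at the 60th percentile, did not pass.

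The genotypes were also compared in how far each gene changed from 8 h to 24 h. Among the 9 genes, Fosl1 (-2.15) and Atf3 (-2.04) passed the rule for this difference of differences, both with the deeper fall in the knockout, 2 of 9 genes, where 3.02% of all 13776 genes passed it downward. With the knockout value of Fosl1 at 24 h raised to the floor, its difference was -1.71, a bound, and that of its second probe set -0.42, short of the rule. None passed it upward, where 4.93% of all genes did. Jun was at -0.97 on its first probe set and -1.06 on its second. On the other side, with the shallower fall in the knockout, lay Fos (0.92), Egr3 (0.75), Egr1 (0.71) and Egr2 (0.71), all short of the rule. Junb was at -0.44, and Fosl2, whose leading probe set fell in neither genotype, at 0.57 (0.78 on its second). No replicate measures the error of these values. The comparisons share arrays. On the knockout array at 8 h, Atf3 and Jun were high, and Cebpb read 1127 against 85 in the knockout at 24 h. That array enters the genotype difference at 8 h, the time change in the knockout and this difference. By the same difference 11 of 12 stroma, 3 of 5 theca and 3 of 10 endothelial markers were higher. Of 12 leukocyte markers 3 were higher (C1qa, C1qb and C1qc) and 4 lower (Ptprc, Cd52, S100a8 and S100a9). In the knockout against wild type, these 4 read 23 against 24, 192 against 69, 50 against 37 and 57 against 36 at 8 h. At 24 h they read 33 against 74, 122 against 163, 21 against 65 and 31 against 61. The part of these cells in the result was not tested.

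**Figure D3:**
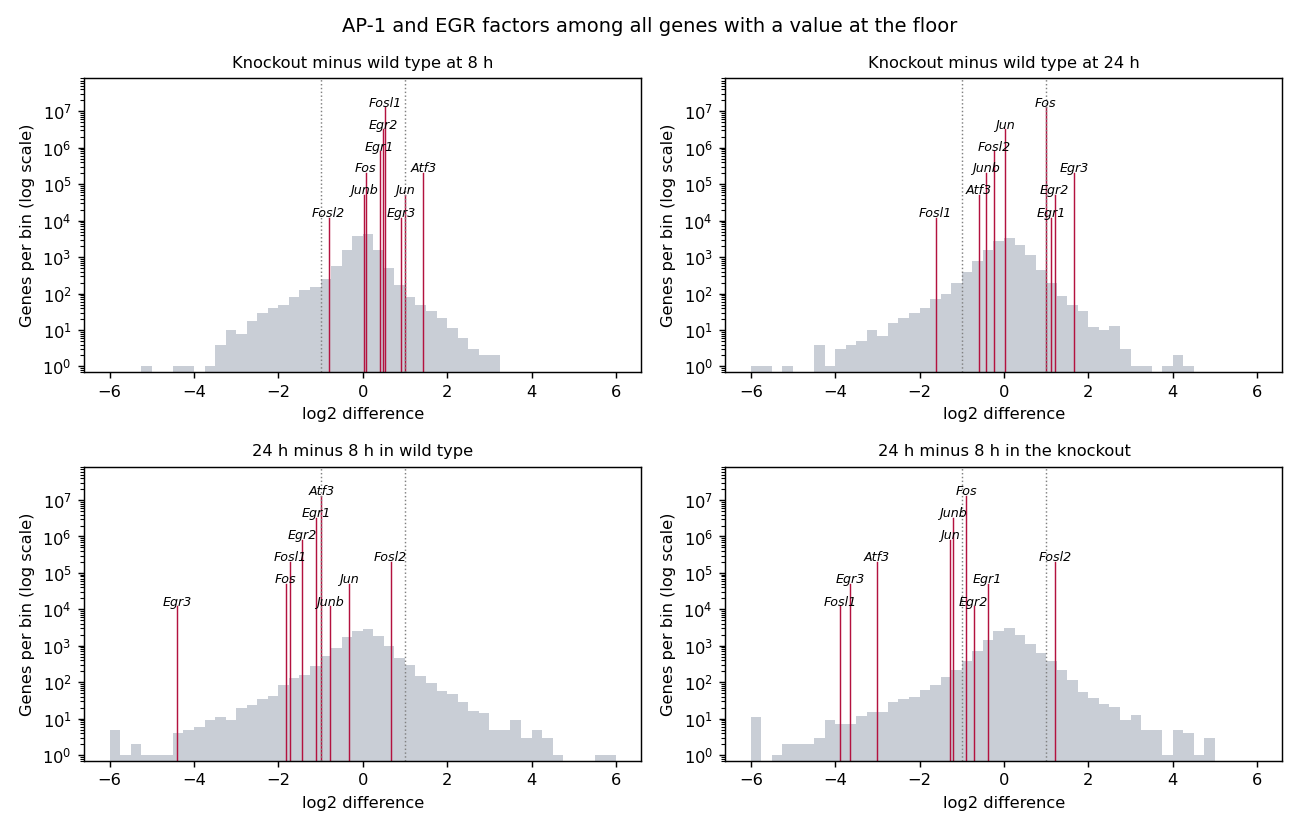
Number of genes per bin of 0.25 in log2 difference (grey bars, log scale, values beyond 6 set to 6) for the 4 comparisons between arrays at 8 h and 24 h, with red lines at the 9 AP-1 and EGR genes that reached the floor and dotted lines at the 2-fold rule. The height of a red line only sets its label apart. In both lower panels the red lines lie mostly left of the peak of the bars, with Egr3 at -4.39 in wild type, while in the upper right panel they lie on both sides of it.

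A fit with limma of genotype and time on the 4 arrays was made across 29069 probe sets, 14 of them of these genes. The errors of this fit come from how far the genotype difference changed between the times (1 residual degree of freedom) and not from replicates. For genotype, averaged over both times, 0 of the 14 were called at an adjusted p of 0.05, as were 0% of all probe sets, and 3 of the 14 had an unadjusted p under 0.05, as had 3235 of all. These were Egr3 (1436329_at, 1.28 ± 0.26, SE, limma adjusted p = 0.417), Egr2 (1427683_at, 0.85 ± 0.25, adjusted p = 0.443) and Egr1 (0.75 ± 0.22, adjusted p = 0.443). All 3 were higher in the knockout at both times, but a low p in this fit needs a like difference at both. For genotype, the second probe set of Egr3 (1421486_at) was at -0.11 and that of Egr2 (1427682_a_at) at 0.43. The second Egr3 probe set was at 0.14 for time, and so did not share the fall given next for the first.

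For time, averaged over genotypes, limma called 0 of the 14 and 0.175% of all probe sets, and 10 of the 14 had an unadjusted p under 0.05, as had 6355 of the 29069. Egr3 (1436329_at) came closest, at -4.02 ± 0.26 (SE, adjusted p = 0.0581 by limma), lower at 24 h in both genotypes. Its adjusted p was 0.0165 after quantile normalization of the 4 arrays, 0.00855 after median centring and 0.0116 with the floor at the 60th percentile, and so passed there. Fosl1 was at -2.81 ± 0.58 and -2.08 ± 0.42, Atf3 at -2.0 ± 0.56, Fos at -1.36 ± 0.28, Junb at -0.99 ± 0.20 and Fosl2 (1437247_at) at 0.94 ± 0.19, with adjusted p-values from 0.125 to 0.177 in limma.

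The knockout array at 4 h, whose median was also the highest, held the highest deposited value of every member probe set except those of Fosl1. Egr1 read 9351, Fos 5293, Egr3 2713 and 124, and Egr2 2034 and 1054. The same array gave 5180 and 141 for Fosl2, 186 and 20 for Fosl1, 29 for Fosb, 1099 and 1184 for Jun, 288 for Junb and 255 for Atf3. These values stand on the scale of that array alone. The rank of a probe set within its array does not depend on the scale. Egr2 (1427683_at) stood at the 94.4th percentile of the array at 4 h, the 63.5th at 8 h and the 55.9th at 24 h in the knockout, and at the 58.3rd and 41.4th in wild type at 8 h and 24 h. Egr3 (1436329_at) stood at the 95.8th, 91.6th and 60.1st in the knockout, and at the 85.2nd and 40.2nd in wild type. Fos moved less, from the 98.1st to the 94.0th and 89.3rd in the knockout, and from the 93.5th to the 81.5th in wild type. Both Fos and the 2 EGR genes thus ranked lower at each later time. Not all members did. From 4 h to 8 h in the knockout, Junb went from the 75.1st to the 80.1st percentile and Atf3 from the 73.5th to the 76.9th. Fosl1 (1417487_at) went from the 69.3rd to the 77.2nd, and Jun from the 90.1st to the 92.8th (1417409_at) and the 90.6th to the 86.3rd (1448694_at). Egr1 went from the 99.1st to the 98.2nd and Fosl2 (1437247_at) from the 98.0th to the 93.9th.

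After quantile normalization of the 5 arrays, 4 of 9 genes were lower by the rule at 8 h than at 4 h in the knockout, where 12.5% of all 13754 genes were, and none was higher, where 17.9% were. Egr2 was at -3.91 (84.2 against 1266) and at -3.71 on its second probe set. Fos was 2.82-fold (-1.49), Fosl2 2.77-fold (-1.47) and Egr3 2.01-fold lower (-1.01). Egr3 did not pass by the mean of its probe sets (-0.84) or with an offset of 16 (-0.99). Markers also differed between these arrays, with 3 of 8 for oocytes lower (median -0.83), 4 of 12 for leukocytes higher and 1 lower, 3 of 12 for stroma higher, and 2 of 9 for granulosa cells lower, among them Inhba (9.19-fold), and 1 higher. Their part in the result was not tested.

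The rest of the family was mixed between 4 h and 8 h. Egr1 was at -0.76, Jun at 0.51 and -0.64, Junb at 0.55 and Atf3 at 0.36. Fosl1 was at 0.83 on its first probe set and at least 3.36-fold higher on its second (2.61 as measured), whose value at 4 h was under the floor. By the mean of both as measured it passed upward (1.72). Probe sets of 1 gene disagreed far more here than elsewhere, with an SD of 0.88, and no wild-type array at 4 h was analysed here. Without further scaling Egr1 (-1.59) also passed, and the median over all genes then shifted by -0.80.

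Other genes of the pathway were taken as lists. For genotype, 1.55% of all genes were higher by the rule and 3.96% lower at 8 h, and 3.03% and 3.82% at 24 h. From 8 h to 24 h, 5.41% rose and 6.36% fell in wild type, and 6.60% and 5.18% in the knockout. The calls of each list below stand against these shares. Among 18 AP-1 partners with a probe set, the zipper genes Atf5 (2.50-fold at 8 h, 3.58-fold at 24 h) and Maf (2.33-fold at 8 h) were lower in the knockout. Bach2, a repressor that pairs with small MAF proteins, was at least 3.11-fold higher at 24 h. From 8 h to 24 h Jdp2, a repressor of AP-1, fell 3.21-fold in wild type and 2.75-fold in knockout cells. In the latter Atf4 (2.40-fold) and Maff (2.44-fold) also fell and Maf rose (2.61-fold). The list's median genotype difference was 0.21 at 8 h and -0.07 at 24 h, against -0.01 and 0.05 over all genes.

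Of 10 EGR relatives and corepressors, Klf4 was 2.36-fold higher in the knockout at 8 h. Nab2, which binds EGR proteins and represses them and is itself an EGR target, was just 2-fold higher at 24 h (382 against 191), with Klf10 at 2.02-fold. Klf4 and Klf6 fell from 8 h to 24 h, by 5.16-fold and 2.06-fold in wild type and 10.7-fold and 4.05-fold in the knockout. Medians of the genotype difference were 0.21 and 0.17.

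Of the regulators upstream of these genes, none of 21 passed the rule at 8 h, where 1.55% of all genes were higher and 3.96% lower, with Egfr, the EGF receptor (-0.96), and the ternary complex factor gene Elk3 (-0.67) the largest. At 24 h Mrtfb, a coactivator of serum response factor, was 2.01-fold higher. Crem, a cAMP-responsive factor, and Egfr fell with time, at -1.58 and -2.20 in wild type and -1.66 and -1.15 in the knockout. Medians were 0.05 and 0.09 for genotype at 8 h and 24 h.

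Of 30 other immediate early genes, Ier3 (3.48-fold), Gadd45a (2.68-fold) and Ccn2 (2.25-fold) were higher in the knockout at 8 h, and the phosphatase gene Dusp1 (2.38-fold) lower. At 24 h Ier3 (4.19-fold), Klf2 (2.76-fold), Errfi1 (2.38-fold) and Ccn2 (2.17-fold) were higher, and Dusp1 (7.39-fold), Ccn1 (3.23-fold) and Myc (2.78-fold) lower, of 29 at the floor. Many of this list fell with time. In wild type 11 of 29 fell, from Ier5 (2.11-fold) to Errfi1 (12.2-fold), and Myc rose 4.07-fold. In the knockout 13 of 30 fell, from Csrnp1 (2.21-fold) to Errfi1 (7.14-fold), and Sgk1 rose 2.10-fold. Of all genes 6.36% fell and 5.41% rose in wild type, and 5.18% and 6.60% in the knockout. List medians were -0.86 and -0.85, against 0 and 0.07 over all genes.

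Of the textbook targets of AP-1 or EGR, 22 reached the floor at 8 h. The plasminogen activator gene Plau was 2.41-fold higher in the knockout, and Ccnd1 (3.79-fold), Ereg (2.30-fold), Icam1 (2.23-fold) and Ptgs2 (2.11-fold) were lower. At 24 h, of 19, Pdgfa was 2.20-fold higher. Lower at that time were Ereg (3.12-fold), Ptgs2 (at least 2.47-fold), Vegfa (2.33-fold), Ccnd1 (2.32-fold), Pdgfb (2.19-fold), Ccl2 (2.10-fold) and Icam1 (at least 1.79-fold). Of all genes, 1.55% were higher and 3.96% lower at 8 h, and 3.03% and 3.82% at 24 h. The median of the targets was -0.01 at 8 h and -0.58 at 24 h, against -0.01 and 0.05 over all genes. From 8 h to 24 h, 5 of 21 fell and 3 rose in wild type, and 9 of 20 fell and 1 rose in the knockout, with medians of -0.62 and -0.92, against the shares of all genes just given for these time changes. The deepest falls were those of Ptgs2 (18.4-fold in wild type and at least 21.5-fold in the knockout) and Ereg (13.6-fold and 18.5-fold), both known as genes of the ovulatory response.

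Between 4 h and 8 h in the knockout, where 17.9% of all genes were higher by the rule and 12.5% lower, 4 of 18 AP-1 partners were higher and 3 lower, and 1 of 10 EGR relatives was higher. Of the upstream regulators 5 of 21 were higher and 5 lower, of the other immediate early genes 6 of 30 and 8, and of the targets 8 of 21 and 5. For the difference of the time changes between genotypes, where 4.93% of all genes were higher and 3.02% lower, the counts were 2 higher of 18 partners, 1 lower of 10 relatives, 1 higher of 21 regulators, 1 higher and 4 lower of 30 immediate early genes, and 4 lower of 22 targets.

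The genes whose course over the 4 arrays was most like that of a factor were found by the root mean square distance of log2 values, each gene centred on its own mean, among 13776 genes. Over 4 points such a likeness describes these arrays only. Nearest to Egr3 were Prkg2 (distance 0.367), Gldc (0.383) and Scg2 (0.443), and nearest to Fosl1 were Egln3 (0.217), Slc7a8 (0.299) and Pcdh17 (0.373). Atf3 had Tac2 (0.159), Tnfaip3 (0.197) and Gm13889 (0.207), and Egr2 had Mfhas1 (0.066), Marcks (0.080) and Pcyt1a (0.082). Tnfaip3, an inhibitor of NF-κB signalling, read 105 (wild type) and 285 (knockout) at 8 h and 60 and 49 at 24 h, high like Atf3 in the knockout at 8 h and low on both arrays at 24 h.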

How the data were processed

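The authors' deposited table holds intensities on a linear scale, in whole numbers, for 45101 probe sets on 5 arrays. Per the submitters' processing notes, affy and RMA were used, with no version. The genome build and the reason for the linear scale are not given in the sources used here. Rounding makes low values coarse. Probe sets were named from the platform annotation, with symbols updated by Entrez identifier from RefSeq (34754 matched), and 34958 had 1 symbol, 932 several and 9211 none. For each gene the probe set with the highest mean over 5 arrays stood for it. Log2 differences, counts by the 2-fold rule with a floor at the 40th percentile, motif searches and figures were made in Python 3.11.15 with pandas 2.3.3. The fit used limma 3.58.1 in R 4.3.3 (eBayes with trend, Benjamini-Hochberg adjustment over all probe sets at the floor). It was also run on simulated data with even noise and the same genotype difference at both times, which does not show its error on these arrays. Arrays limit precision by their number, 1 a group.

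The members, gene lists and markers were chosen with earlier results of these data known. Each list names, beside its counts, the genes past the rule in the comparison described, or else its 2 largest. For time changes of the 2 longest lists only the extremes are named, and between 4 h and 8 h, or for the difference of time changes, the lists are given as counts. Likeness is printed for the 4 members of widest range. Alternatives were 3 further scalings (1 of them added after seeing the data), other floors, fold thresholds and offsets, and other choices of probe set, and for the fit also no filter and no trend.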

Additional observations from a re-analysis of the deposited data

Results flagged for a closer look

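Fosl1 (1417487_at) lay above wild type in the knockout at 8 h, by 0.53 on the log2 scale, and below it at 24 h, by -1.62, a difference of -2.15 between the 2 times. Atf3 (1449363_at) likewise lay above at 8 h, by 1.44, and below at 24 h, by -0.60, a difference of -2.04. They stand here because the genotype difference had opposite signs at the 2 times, by at least 0.5 on each side. With 1 array a group the difference between the times was not tested. At 24 h the knockout value of Fosl1 was 14, under the floor of 19, and with it raised to the floor the difference between the times was -1.71, and that of Atf3 was 25.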

How the results depend on the processing

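Of 754 values of single genes or probe sets recomputed under other settings, 701 kept their direction and their side of the threshold, 31 came to pass it, 22 no longer passed and none that had passed changed sign. At 8 h, 1 gene passed for genotype, 2 after any of the 3 further scalings (the quantile normalization of all 5 arrays was chosen after seeing the data) or by the mean of probe sets, 4 at 1.5-fold and 0 at 3-fold. At 24 h, 4 passed, but 2 by the mean of probe sets, with the floor at the 60th percentile, with an offset of 16 or at 3-fold, and that floor moved the median from 0.02 to 0.51. For time in wild type, 5 passed, 8 at 1.5-fold and 3 at 3-fold, and in the knockout 6, but 3 at 3-fold. From 4 h to 8 h, 4 passed, but 1 at 3-fold, and for the difference of the time changes 2, but 7 at 1.5-fold. In the limma fit for time, 0 probe sets were called, and 1 after quantile normalization, after median centring or with the floor at the 60th percentile. These counts differ because each alternative sets another threshold, filter, scale or probe set. The shares of all genes or probe sets past 1.5-fold, 3-fold or the other alternatives are not given here. The counts under them therefore stand without a background and are not read as results about these genes. No paired analysis was possible because each group has 1 array and no replicate numbers are shared. Signal near the floor limits Egr2, Egr3, Fosl1 and Atf3 at 24 h and all of Fosb.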
